A study of Mus musculus with 72 samples.

Results

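The voltage-gated calcium channel pore subunits examined here are the products of Cacna1a, Cacna1b, Cacna1c, Cacna1d, Cacna1e, Cacna1g, Cacna1h and Cacna1i. The genes were chosen by name, though with earlier results of these data known, and they make up 8 of the 53715 genes in the count tables. All 8 were counted in all 72 libraries. Cacna1f and Cacna1s, the remaining 2 pore subunit genes, were not members and are given only for comparison. The libraries came from 18 male mice, all aged 18 weeks, with 6 animals of each genotype, Gnb5+/+, Gnb5+/- or Gnb5-/-. The mutant allele lacked exon 3 of Gnb5, the gene of an atypical G protein beta subunit, in the germline. Both heart chambers were sequenced in every genotype, and 3 brain regions (hippocampus, cerebellum and cerebral cortex) in Gnb5+/+ and Gnb5-/- mice, which gave 12 groups of 6 libraries. The allele was made on a C57BL/6J background, and the labels name no treatment. Each library was made from a whole tissue, and the atria held sinoatrial and atrioventricular cells beside atrial muscle. In such bulk samples, fewer cells of a type and less RNA per cell cannot be told apart.

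Voltage-gated calcium channels open when the membrane depolarises and let calcium enter the cell. The pore subunit sets the class of the channel: L-type channels drive contraction of cardiac muscle and signal to the nucleus in neurons, P/Q-, N- and R-type channels trigger transmitter release at synapses, and T-type channels open near the resting potential and shape pacemaking and burst firing. Beta and alpha-2-delta subunits carry the pore to the membrane and tune its gating. Receptors coupled to inhibitory G proteins slow the presynaptic channels through Gbetagamma dimers, and the Gbeta5 protein forms complexes with RGS proteins that end such signals.

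Cacna1c and Cacna1d encode L-type pores, Cacna1a, Cacna1b and Cacna1e the P/Q-, N- and R-type pores, and Cacna1g, Cacna1h and Cacna1i the T-type pores. On GRCm38, Cacna1c (ENSMUSG00000051331) lay on chromosome 6 from 118587240 to 119196418 and Cacna1d (ENSMUSG00000015968) on chromosome 14 from 30039939 to 30491455, both on the minus strand. Cacna1a (ENSMUSG00000034656) lay on the plus strand of chromosome 8 from 84388440 to 84640246, Cacna1b (ENSMUSG00000004113) on the minus strand of chromosome 2 from 24603887 to 24763152, and Cacna1e (ENSMUSG00000004110) on the minus strand of chromosome 1 from 154390731 to 154884501. Cacna1g (ENSMUSG00000020866) lay on the minus strand of chromosome 11 from 94408391 to 94474198, Cacna1h (ENSMUSG00000024112) on the minus strand of chromosome 17 from 25374285 to 25433783, and Cacna1i (ENSMUSG00000022416) on the plus strand of chromosome 15 from 80287238 to 80398279. The counts covered the merged exons of each gene, from 9763 bases in Cacna1h to 25228 bases in Cacna1e. No member shared exon bases with a gene of its own strand. On the opposite strand, Cacna1a shared 435 exon bases with the antisense gene Gm16183, Cacna1d 589 with Chdh and Cacna1h 158 with Tpsg1.

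Windows of 300 bases, from 250 before to 50 after an annotated start, were given by RefSeq on GRCm38.p6 for 5 of the 8 members, 8 windows in all. They are shown for 3 genes because Cacna1b and Cacna1i were near the limit of counting in heart and abundant in brain, whereas Cacna1c was highest in ventricles and has starts of unlike base composition. Cacna1e was likewise low in heart and abundant in brain, but its window is not shown. Capitals mark CG dinucleotides. The windows lie on the minus strand at chr2:24763103-24763402 for Cacna1b, on the plus strand at chr15:80286988-80287287 for Cacna1i, and on the minus strand at chr6:119108446-119108745 and chr6:119196360-119196659 for starts A and B of Cacna1c.
Cacna1b: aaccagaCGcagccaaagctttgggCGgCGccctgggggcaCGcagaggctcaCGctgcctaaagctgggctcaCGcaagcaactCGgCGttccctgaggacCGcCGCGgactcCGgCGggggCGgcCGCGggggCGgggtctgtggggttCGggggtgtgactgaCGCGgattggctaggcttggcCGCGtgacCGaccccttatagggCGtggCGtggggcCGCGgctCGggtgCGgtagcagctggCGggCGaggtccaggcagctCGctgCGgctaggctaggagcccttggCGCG
Cacna1i: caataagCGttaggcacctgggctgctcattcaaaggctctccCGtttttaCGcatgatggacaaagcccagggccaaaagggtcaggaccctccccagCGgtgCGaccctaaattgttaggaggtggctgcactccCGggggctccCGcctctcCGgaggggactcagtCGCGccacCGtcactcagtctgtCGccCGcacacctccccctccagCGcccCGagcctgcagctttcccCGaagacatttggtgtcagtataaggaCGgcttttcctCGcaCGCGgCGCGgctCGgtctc
Cacna1c start A: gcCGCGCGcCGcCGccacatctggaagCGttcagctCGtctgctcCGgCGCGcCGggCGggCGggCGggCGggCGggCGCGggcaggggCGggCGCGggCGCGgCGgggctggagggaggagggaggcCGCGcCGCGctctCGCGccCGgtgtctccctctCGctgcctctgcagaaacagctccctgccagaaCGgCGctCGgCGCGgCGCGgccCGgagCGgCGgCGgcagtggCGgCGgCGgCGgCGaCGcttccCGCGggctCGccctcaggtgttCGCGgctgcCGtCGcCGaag
Cacna1c start B: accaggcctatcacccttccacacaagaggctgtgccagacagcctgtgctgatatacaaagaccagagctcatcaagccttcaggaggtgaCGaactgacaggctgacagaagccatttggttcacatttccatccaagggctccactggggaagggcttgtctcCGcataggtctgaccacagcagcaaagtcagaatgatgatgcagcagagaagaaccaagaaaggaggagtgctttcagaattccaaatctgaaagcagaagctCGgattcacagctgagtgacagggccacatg
The Cacna1b window held 35 CG and the Cacna1i window 23, against a median of 7.0 over 32851 windows of all genes. Start A of Cacna1c held 57 CG and start B held 3. Counts per gene do not separate these starts, so which of them was used in which tissue was not measured. GGGCGG, searched on both strands, stood 3 times in the Cacna1b window, 6 times in start A of Cacna1c and 0 times in the other two windows, and 35.7% of all windows held it. TATAAA, searched in the same way and unable to overlap GGGCGG, was in 0 of the 4 windows shown and in 13.6% of all windows. Of the 4 member windows not shown, Cacna1d had one with 63 CG and one with 4 CG, the latter with TATAAA 3 times, and those of another Cacna1c start and of Cacna1e held 7 and 11 CG and TATAAA 0 times. GGGCGG stood 6 times in the Cacna1d window with 63 CG and 0 times in the rest of these.

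Between 29204390 and 48807435 reads were counted on genes per library. Gnb5 counts followed the labels, with atrial levels of 33.2 ± 2.90 CPM for Gnb5+/+, 17.4 ± 2.21 for Gnb5+/- and 2.06 ± 0.461 for Gnb5-/- mice (SD, n = 6). The labels of atria and cerebellum matched their markers. The 4 atrial muscle genes summed to 21508 to 39371 CPM in atria and 128 to 478 in ventricles. The 5 Purkinje cell genes summed to 5536 to 6443 CPM in Gnb5+/+ cerebellum against 515 to 874 in the other brain regions of these mice. Cortical excitatory neuron markers overlapped, with 1011 to 1202 CPM in Gnb5+/+ cortex and 1002 to 1129 in hippocampus. Hippocampal neuron markers had 555 to 707 CPM in Gnb5+/+ hippocampus and 230 to 304 in cortex, but 703 to 811 in ventricles. Libraries of 4 mutant samples stood apart from their groups by a low share of reads outside annotated genes: Gnb5-/- cerebellum of mouse 12 (8.02% against 14.02 to 16.6% in the rest of its group), Gnb5-/- cortex of mice 14 and 3 (6.86% and 8.32% against 13.4 to 14.9%) and Gnb5+/- ventricles of mouse 4 (2.85% against 4.61 to 4.81%). Levels were computed as CPM, counts per 1000000 of the library total after scaling with TMM factors over the 72 libraries. For the main results that rest on these 4 libraries, values without them are given as well. The mitochondrially encoded genes took 1.76 to 4.90% of counts in brain, 14.1 to 34.5% in atria and 26.5 to 44.8% in ventricles.

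The family had a different leading member in each heart chamber. In Gnb5+/+ atria, the T-type gene Cacna1h made up 67.9% (61.1 to 70.2% over 6 mice) of the family's summed CPM per kb of merged exons, and the L-type gene Cacna1c 19.8%. In ventricles, Cacna1c made up 80.2% (77.5 to 84.9%), Cacna1g 9.65% and Cacna1h 7.196%. T-type genes together thus took 74.3 ± 3.19% of the family in atria and 16.9 ± 3.20% in ventricles, while the 3 presynaptic genes took 1.82 ± 0.405% and 2.19 ± 0.411% (SD, n = 6). The family's sum was 50.6 ± 5.70 CPM per kb in atria, 31.9 ± 5.32 in ventricles and 90.4 ± 2.88 to 103 ± 1.96 in the brain regions.

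In each brain region of Gnb5+/+ mice, the P/Q-, N- and R-type genes took the largest class share of the family, 53.5 ± 0.526% in cerebellum, 51.7 ± 1.72% in hippocampus and 54.1 ± 1.00% in cortex. Within that class the regions differed. Cacna1a led the cerebellum with 36% of the family per length, ahead of the T-type gene Cacna1g with 28.2%. Cacna1e led the hippocampus with 21.4%, followed by Cacna1b with 16.5% and Cacna1h with 15.8%. In cortex, Cacna1b, Cacna1e and Cacna1a had 18.8, 18.1 and 17.2%, and Cacna1i and Cacna1g 12.6 and 12.1%. With the longest transcript in place of merged exons, the leading gene remained Cacna1h in atria, Cacna1c in ventricles, Cacna1a in cerebellum and Cacna1e in hippocampus, and became Cacna1e in cortex.

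**Figure D1:**
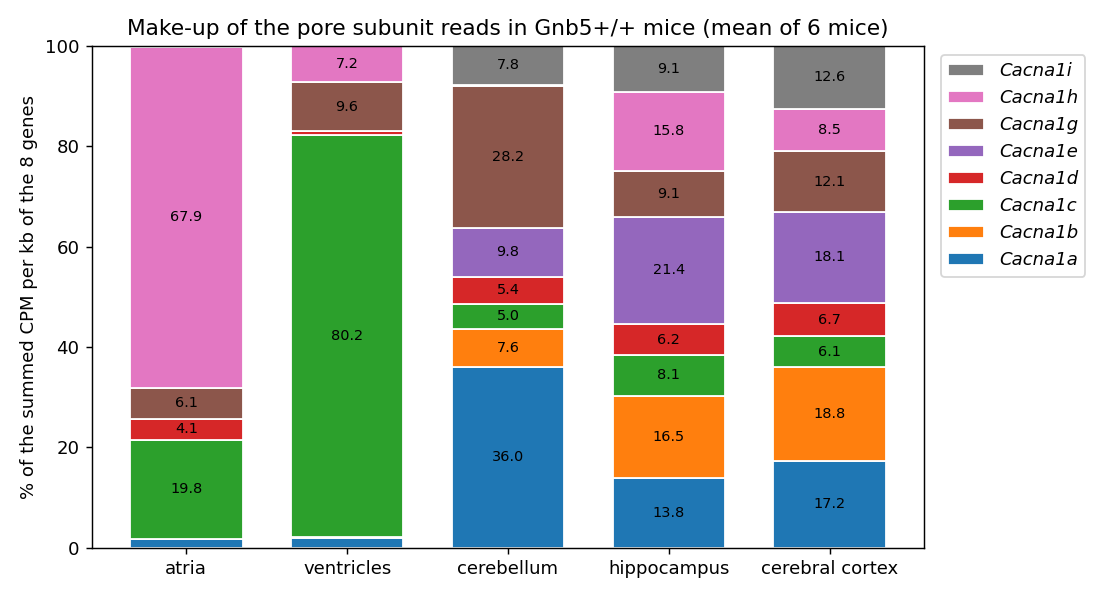
Make-up of the family in Gnb5+/+ mice, as each gene's mean share in percent of the summed CPM per kb of merged exons in 5 tissues (n = 6 mice each). Cacna1h filled 67.9% of the atrial bar, Cacna1c 80.2% of the ventricular bar and Cacna1a 36% of the cerebellar bar.

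The L-type gene Cacna1c, whose product is the main calcium channel of ventricular muscle, was highest in ventricles. It ranged from 419.9 to 650.1 CPM with a median of 525 in Gnb5+/+ ventricles, from 179 to 249.6 with a median of 209.8 in atria, and from 148 to 171 with a median of 164 in hippocampus. Cerebellum (102 to 119.5, median 105) and cortex (113 to 121, median 117) were lower still. No ventricular library was below any atrial one, and the level in ventricles was 2.5-fold that in atria (log2 difference 1.32, SE 0.08, edgeR adjusted p = 1.67e-13). Cortex and cerebellum could not be told apart (log2 difference 0.05, SE 0.08, adjusted p = 0.629). The order of hippocampus and atria depended on the scale: hippocampus minus atria was -0.40 (SE 0.08, adjusted p = 6.80e-05), but 0.23 (adjusted p = 0.0144) with total counts and -0.16 (adjusted p = 0.0613) with total counts that left out mitochondrially encoded genes.

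Cacna1d, the L-type gene that opens at lower voltages and serves pacemaking in the sinoatrial node, had the opposite chamber difference. Its range was 23.9 to 33.1 CPM in Gnb5+/+ atria, with a median of 24.6, and 2.31 to 3.52 in ventricles, with a median of 2.91. It was therefore 9.34-fold lower in ventricles (log2 -3.22, SE 0.08, edgeR adjusted p = 7.34e-22). The 3 brain regions had means of 69.5 ± 4.83, 74.0 ± 2.62 and 75.8 ± 2.17 CPM in cerebellum, hippocampus and cortex, and none of these pairs passed the test (adjusted p = 0.427 to 0.829). Genes of pacemaker and nodal cells, a list of 5, summed to 33.4 to 69.3 CPM in Gnb5+/+ atria and 36.04 to 46.5 in ventricles, and their part in the Cacna1d levels was not tested.

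Cacna1a, which encodes the P/Q-type pore that triggers release at most fast central synapses and is abundant in Purkinje cells, was highest in cerebellum. Its Gnb5+/+ range there was 402 to 431 CPM with a median of 425, against 155 to 185 (median 182) in cortex and 138 to 157 (median 149) in hippocampus. Heart values were 7.96 to 10.97 CPM in atria and 6.84 to 7.86 in ventricles. All neighbours in the order cerebellum, cortex, hippocampus, atria, ventricles passed the test, the closest being cortex above hippocampus (log2 0.24, SE 0.05, adjusted p = 0.000503) and ventricles below atria (log2 -0.44, SE 0.06, adjusted p = 1.38e-06).

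Cacna1b, the N-type pore gene of presynaptic terminals, was nearly a brain gene in these counts. In Gnb5+/+ mice it ranged from 155 to 183 CPM in cortex (median 169.9), 137 to 167 in hippocampus (median 158) and 71.0 to 92.6 in cerebellum (median 76.1). Heart libraries of the same mice had 1 to 18 reads in atria and 2 to 14 in ventricles, or 0.0267 to 0.525 and 0.102 to 0.646 CPM. Cortex and hippocampus did not differ by the test (log2 0.11, SE 0.11, adjusted p = 0.452), nor did the heart chambers (ventricles minus atria 0.58, SE 0.42, adjusted p = 0.264). The Gnb5-/- atria of mouse 3 had 0 reads, which allows up to 0.0810 CPM at 3 counts.

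Cacna1e, the R-type pore gene, was highest in hippocampus, from 447 to 595 CPM with a median of 498 in Gnb5+/+ mice. Cortex had 370.1 to 433 (median 415) and cerebellum 246 to 261 (median 255), and the hippocampal libraries were all above the cortical ones. The difference between cortex and hippocampus was small (log2 -0.32, SE 0.11, edgeR adjusted p = 0.0213) and did not pass under DESeq2 (adjusted p = 0.115) or with total counts as the scale (0.0527). Atria had 0.508 to 2.25 CPM and ventricles 0.329 to 0.816, a log2 difference of -1.40 (SE 0.27, adjusted p = 7.89e-05).

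Among the T-type genes, Cacna1g is known from cerebellar and thalamic neurons and from the cardiac conduction system. It was highest in cerebellum, with 274 to 310.4 CPM (median 294), against 99.0 to 118 (median 112) in cortex and 76.9 to 101 (median 86.8) in hippocampus. Both heart chambers had about the same mean, 31.3 ± 5.03 CPM in atria and 31.6 ± 8.99 in ventricles (SD, n = 6), with a log2 difference of -0.03 (SE 0.12, adjusted p = 0.899). That pair depended on the scale: with total counts it was -0.41 (adjusted p = 0.00738), and that scale moved all 8 members by a median of -0.38 in this pair.

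Cacna1h, the T-type gene that is also expressed in developing and stressed heart muscle, had the widest chamber difference of the 8. Its Gnb5+/+ range was 256 to 400.0 CPM in atria (median 337) and 11.2 to 33.7 in ventricles (median 22.8), a 15.1-fold difference (log2 -3.92, SE 0.17, adjusted p = 5.99e-17). Hippocampus had 123 to 169.8 CPM (median 145), cortex 65.6 to 89.1 (median 74.8) and cerebellum 1.64 to 2.57 (median 1.93). Hippocampus was thus 70.2-fold above cerebellum (log2 6.13, SE 0.20, adjusted p = 1.01e-20). The 3 ranges in brain did not touch, and the cerebellar level was also below that of both heart chambers.

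Cacna1i, the T-type gene of the brain, had 94.8 to 122 CPM in Gnb5+/+ cortex (median 112), 78.0 to 97.9 in hippocampus (median 82.0) and 69.2 to 86.2 in cerebellum (median 78.6). Cortex was above hippocampus (log2 0.39, SE 0.10, adjusted p = 0.00320), while hippocampus and cerebellum did not differ by the test (log2 0.04, SE 0.10, adjusted p = 0.707). In heart it was counted at 0.728 to 1.498 CPM in atria and at no more than 0.376 in ventricles, where mouse 17 had 0 reads (up to 0.162 CPM).

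**Figure D2:**
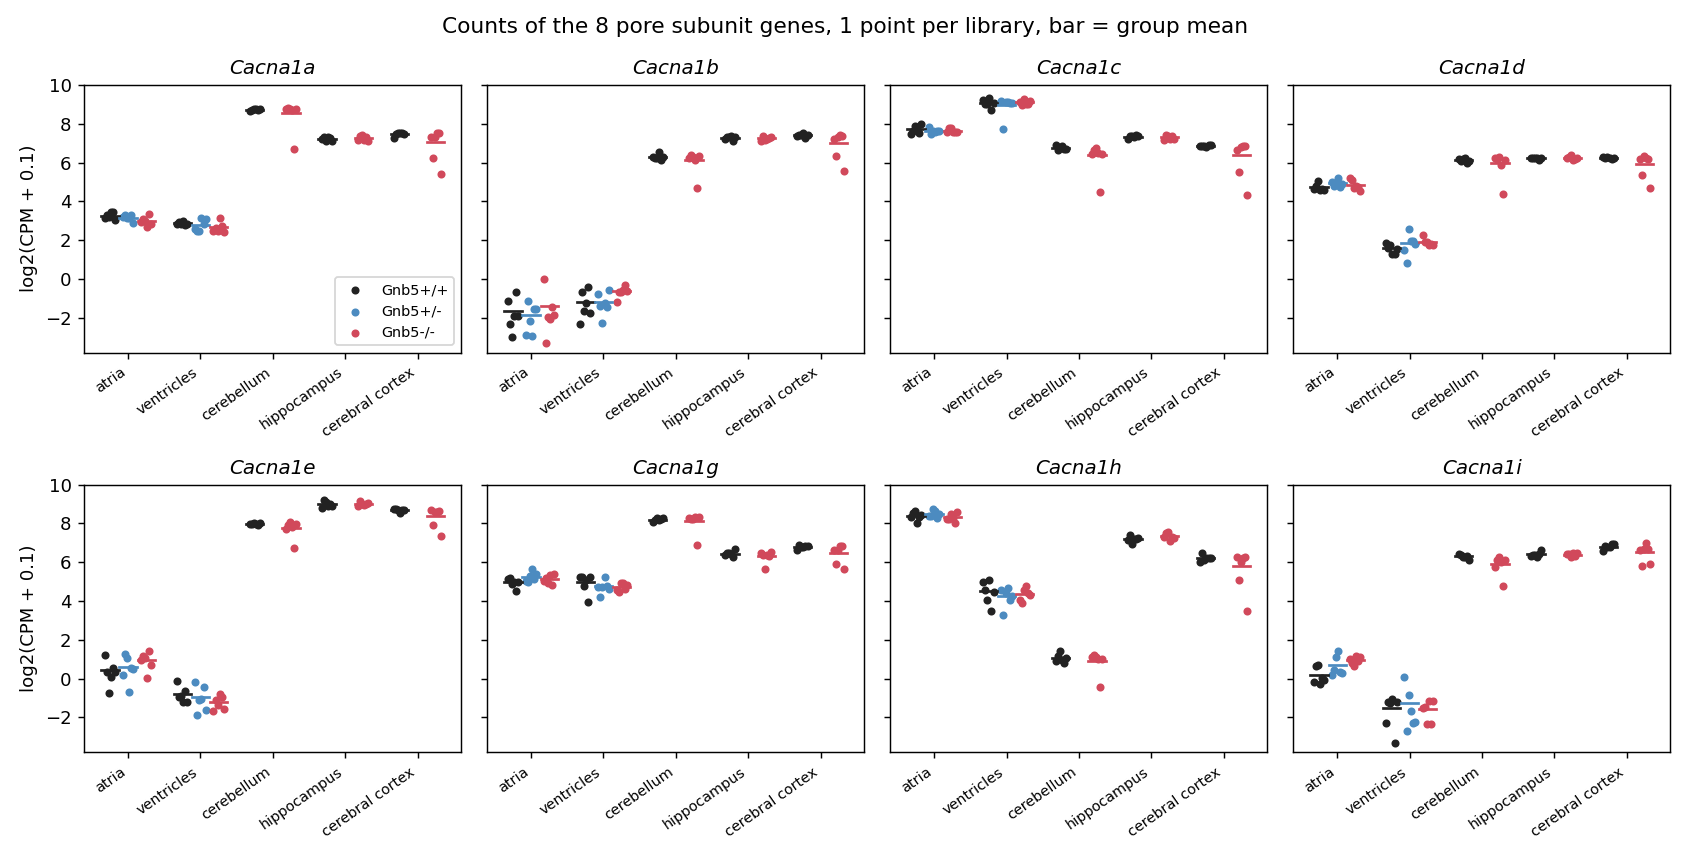
Level of each of the 8 genes in all 72 libraries, as TMM-normalized CPM plus 0.1 on a log axis, by tissue and genotype; each point is 1 mouse and each bar a group mean (n = 6). Cacna1b, Cacna1e and Cacna1i sit near the foot of the axis in both heart chambers, and Cacna1h sits there in cerebellum.

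Counted over the Gnb5+/+ tissue pairs, 6 of 8 members passed the test between ventricles and atria, 1 higher and 5 lower, where 53.6% of all genes were called, 22.7% as higher and 31% as lower. All 8 passed in each of the 6 pairs of a heart chamber with a brain region, where all genes were called at 87.3% for cerebellum against either chamber, 87.6 and 87.8% for hippocampus against atria and ventricles, and 88.1 and 88.3% for cortex. With total counts that left out mitochondrially encoded genes, 7 passed between hippocampus and atria. In the brain, 6 of 8 passed between hippocampus and cerebellum (background 70.8%), cortex and cerebellum (71.8%) and cortex and hippocampus (37.7%). Most genes differed between heart and brain, so these counts alone do not set the members apart. Between cortex and ventricles, the log2 differences of the members ran from -2.20 in Cacna1c to 9.77 in Cacna1e, with a median of 4.67 beside 0.24 over all genes. From atria to cortex, the members ran from -2.21 in Cacna1h to 9.51 in Cacna1b.

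**Figure D3:**
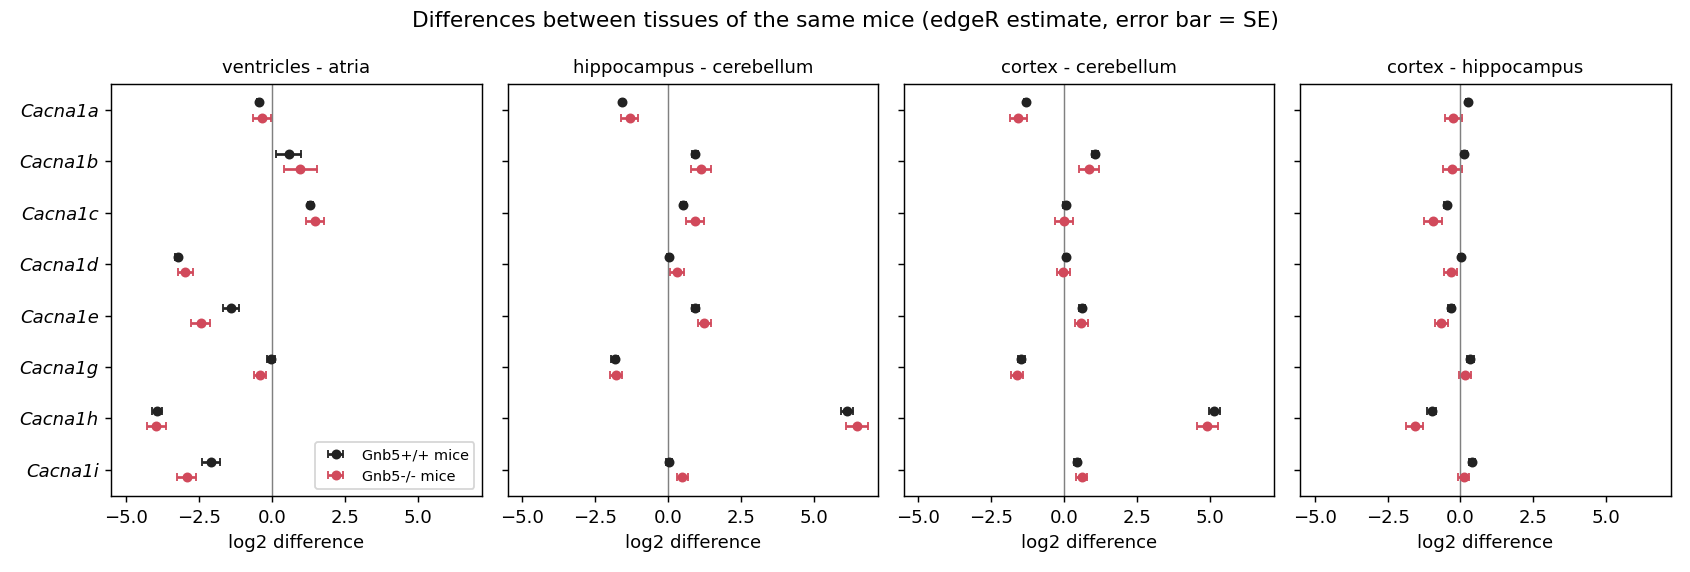
Log2 differences of the 8 genes between tissues of Gnb5+/+ mice, with standard errors from the edgeR fit that had each mouse as a block. Cacna1h stands at -3.92 between ventricles and atria and at 6.13 between hippocampus and cerebellum.

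The same tissue differences were measured in the Gnb5-/- mice, which were other animals. Over 10 tissue pairs and 8 members, 72 of 80 comparisons passed in Gnb5+/+ and 68 of 80 in Gnb5-/- mice. In 67 both passed with the same sign, and in 0 with opposite signs. These counts are with all libraries. Without the 3 brain libraries that stood apart, no tissue pair had fewer members called in Gnb5-/- mice, and some had more. The share of all genes called rose too between cortex and hippocampus, from 24 to 33.2%. In Gnb5-/- mice the background was 78.6 and 80.4% for cerebellum, 80.3 and 81.4% for hippocampus and 79.9 and 81.1% for cortex against atria and ventricles, and 54.4 and 55.3% for hippocampus and cortex against cerebellum. Those called in Gnb5+/+ mice had the same sign in Gnb5-/- mice in 71 of 72 cases, and the exception was Cacna1a between cortex and hippocampus (0.24 in Gnb5+/+ and -0.25 in Gnb5-/- mice, adjusted p = 0.547 in the latter). Without the 3 brain libraries that stood apart, it was 0.13 (SE 0.09, adjusted p = 0.312) in Gnb5-/- mice. Between ventricles and atria, 5 of 8 members passed in Gnb5-/- mice (background 41.7%), with Cacna1h at -3.96, Cacna1d at -2.97 and Cacna1c at 1.48. In Gnb5+/- mice 6 of the 7 members tested passed (background 54.2%), with -4.28, -3.13 and 1.29 for the same 3 genes. Without the Gnb5+/- ventricles of mouse 4, all 7 differences kept their sign and their side of the threshold. Cacna1g, with no called difference in Gnb5+/+ mice, was lower in ventricles of Gnb5+/- mice (log2 -0.51, SE 0.09, edgeR adjusted p = 0.000811). In Gnb5-/- mice it was at -0.39 with all libraries (SE 0.21, adjusted p = 0.146). Without the 3 brain libraries that stood apart, Cacna1g passed as lower in ventricles of Gnb5-/- mice too. The share of all genes called in that fit is not given. Whether Gnb5+/- and Gnb5+/+ mice differed in the chamber difference of Cacna1g was not tested. Between cortex and hippocampus, 3 of 8 passed in Gnb5-/- mice (background 24%) and 5 of 8 without the 3 brain libraries that stood apart (background 33.2%).

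The other subunits of these channels were counted by family, and 3 of 4 beta and 3 of 4 alpha-2-delta genes passed between ventricles and atria, beside 53.6% of all genes. Of the 4 beta subunit genes, Cacnb2 was higher in Gnb5+/+ ventricles than in atria (133 ± 7.93 against 94.5 ± 10.4 CPM, log2 0.46, SE 0.05), and Cacnb3 and Cacnb1 were lower (log2 -1.002 and -0.49). Of the 4 alpha-2-delta genes, Cacna2d1 was higher in ventricles (398 ± 50.6 against 162 ± 38.88 CPM, log2 1.28, SE 0.09), while Cacna2d2 (4.79 ± 1.36 against 111 ± 24.6 CPM) and Cacna2d3 (1.03 ± 0.335 against 25.4 ± 3.58) were lower (log2 -4.57 and -4.65). Cacna1c, Cacnb2 and Cacna2d1 were thus all higher in ventricles, and Cacna1d, Cacna1h, Cacna2d2 and Cacna2d3 all higher in atria. Of the pores outside the 8, Cacna1s, the L-type pore of skeletal muscle, had 21.8 ± 9.49 CPM in ventricles and 3.86 ± 1.82 in atria (log2 2.45, SE 0.22), with 6 skeletal muscle markers at 1.55 to 2.05 CPM in sum in ventricles and 6.76 to 12.5 in atria.

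Among the auxiliary subunits, Cacnb4 and Cacna2d2 were higher in cerebellum than in hippocampus. Cacnb4, the beta subunit associated with P/Q-type channels, had 452 ± 27.6 CPM in Gnb5+/+ cerebellum and 132 ± 8.74 in hippocampus (log2 hippocampus minus cerebellum -1.83, SE 0.08), and Cacna2d2 had 193 ± 10.2 and 26.2 ± 2.19 (-2.94, SE 0.11). Cortex had 208 ± 8.87 CPM of Cacnb4 and 52.2 ± 6.40 of Cacna2d2, and atria 111 ± 24.6 of the latter. Cacnb1 and Cacnb3 were higher in hippocampus, by 2.53 and 2.31, and Cacna2d1 by 1.43 (SE 0.09). Between hippocampus and cerebellum, where 70.8% of all genes were called, 3 of 4 beta genes were higher and 1 lower, 2 of 4 alpha-2-delta genes higher and 2 lower, 3 of 7 gamma genes and relatives higher and 4 lower, and 10 of 19 channel-binding regulators higher and 6 lower. Among the regulators the largest differences were in Stx1a (5.40), Rimbp2 (4.28) and Akap5 (3.79), of which Stx1a and Rimbp2 encode presynaptic partners of the channels. Calcium-activated potassium channel genes, which calcium entry opens, were higher in 4 of 5 and lower in 0.

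Between ventricles and atria, where 53.6% of all genes were called, 1 of 7 gamma genes tested was higher and 5 lower. Of the 19 regulators 5 were higher and 7 lower, and 1 of 5 potassium channel genes was higher, Kcnn1 (18.8 ± 3.58 against 14.3 ± 2.41 CPM, log2 0.34). The regulators with the largest differences were the synaptic genes Snap25, Syt1 and Rims1, each at a mean of at most 0.817 CPM in atria. Nerve markers, a list of 7, summed to 16.5 to 27.4 CPM in Gnb5+/+ atria and 2.80 to 8.04 in ventricles, beside the atrial excess of Cacna1e and Cacna1i, and their part in it was not tested. Of the 5 Gbeta genes, 2 were higher in ventricles, led by Gnb3 (log2 2.37, SE 0.22), and 2 lower. Between cortex and ventricles 88.3% of all genes were called. The split there was 3 higher and 1 lower of 4 beta genes and 3 and 1 of 4 alpha-2-delta genes. It was 6 and 1 of 7 gamma genes and 15 and 4 of 19 regulators.

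Loss of Gnb5 was compared with Gnb5+/+ tissue by tissue, to ask whether the expression of the pores depended on genotype. None of the 8 members passed the test in any of the 7 comparisons, by edgeR or by DESeq2, although Gnb5 itself passed in all 7. The share of all genes called by edgeR was 0.253% in Gnb5-/- atria, 0.188% in ventricles, 0.0817% in cerebellum, 0.165% in hippocampus and 0.0557% in cortex, and 0.0124% and 0.0202% in Gnb5+/- atria and ventricles. By DESeq2 it was 0.618, 0.293, 0.299, 0.509 and 0.142% in the same 5 Gnb5-/- tissues, and 0.0268 and 0.0106% in Gnb5+/- mice. With all libraries, 4 of 50 tests of members passed at an unadjusted edgeR p under 0.05. All 4 were in atria, where 8.15% of all genes did so in Gnb5-/- and 7.22% in Gnb5+/- mice. The share of all genes at that p was 4.78 and 4.84% in Gnb5-/- and Gnb5+/- ventricles, 5.85% in cerebellum, 7.7% in hippocampus and 7.39% in cortex. Without mouse 12, Cacna1c and Cacna1i in Gnb5-/- cerebellum were also under that p, and neither passed after adjustment. Without mouse 4, Cacna1d in Gnb5+/- ventricles was under it too (log2 0.44, SE 0.18, edgeR adjusted p = 0.715). The share of all genes under that p in these 2 fits is not given, so these genes are not read as a result about the members. Among the pathway lists, edgeR called Gnb5 alone. DESeq2 also called Cabp1, which encodes a calcium-binding regulator of the channels, in Gnb5-/- atria (2.40 ± 0.396 against 3.47 ± 0.471 CPM, log2 -0.53, SE 0.14, DESeq2 adjusted p = 0.0396, edgeR adjusted p = 0.169).

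Cacna1i in atria had the smallest p. Its level was 0.728 to 1.498 CPM (median 0.891) in Gnb5+/+, 1.02 to 2.54 (median 1.21) in Gnb5+/- and 1.44 to 2.15 (median 1.86) in Gnb5-/- mice, from 18 to 56, 31 to 82 and 45 to 94 reads. All 6 Gnb5-/- mice were above the Gnb5+/+ mean, but the ranges overlapped. The log2 difference in Gnb5-/- mice was 0.80 (SE 0.25, edgeR adjusted p = 0.319). Its adjusted p lay between 0.119 and 0.447 under the alternatives tried. By exact permutation p was 0.00649, or 0.242 adjusted over 56 tests. In Gnb5+/- mice it was 0.54 (SE 0.25, edgeR adjusted p = 0.673). Nerve markers summed to 16.5 to 33.2 CPM in Gnb5-/- and 16.5 to 27.4 in Gnb5+/+ atria. Of these 7 markers 5 were tested, with a median log2 difference of 1.85, and 0 passed (background 0.253%). The part of nerve markers in the Cacna1i difference was not tested.

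The other atrial differences were smaller. Cacna1e had 0.917 to 2.59 CPM in Gnb5-/- and 0.508 to 2.25 in Gnb5+/+ atria, with a log2 difference of 0.58 (SE 0.34, edgeR adjusted p = 0.736). Cacna1a had 6.21 to 10.1 CPM (median 7.69) in Gnb5-/- and 7.96 to 10.97 (median 9.38) in Gnb5+/+ atria, with a log2 difference of -0.28 (SE 0.12, edgeR adjusted p = 0.517). Cacna1g in Gnb5+/- atria was at 31.4 to 49.5 CPM (median 36.6) against 22.5 to 36.6 (median 31.6), a difference of 0.29 (SE 0.13, edgeR adjusted p = 0.667). The leading atrial gene, Cacna1h, differed by -0.08 (SE 0.11) in Gnb5-/- and 0.11 (SE 0.11) in Gnb5+/- mice, and Cacna1d, the pacemaker L-type gene, by 0.14 and 0.20 (SE 0.11 for both). The 5 genes of pacemaker and nodal cells summed to 33.4 to 69.3 CPM in Gnb5+/+, 52.6 to 90.8 in Gnb5+/- and 25.3 to 102 in Gnb5-/- atria, and their part in these differences was not tested. The mitochondrially encoded share was 14.1 to 23.9% of counts in Gnb5-/- and 23.4 to 34.5% in Gnb5+/+ atria. With total counts as the scale, the Gnb5-/- differences of the members moved by a median of 0.14, and those of Cacna1c and Cacna1h changed sign, to 0.07 and 0.05.

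In ventricles, Cacna1c was at 496 to 621 CPM (median 541) in Gnb5-/- and 419.9 to 650.1 (median 525) in Gnb5+/+ mice, a log2 difference of 0.02 (SE 0.17, edgeR adjusted p = 0.9998). The 3 genotypes shared one estimate of the spread. Without the Gnb5+/- library of mouse 4 this difference was 0.02 with an SE of 0.08 (edgeR adjusted p = 0.993). In Gnb5+/- ventricles 5 libraries lay at 531 to 585 CPM and that of mouse 4 at 214, so that the difference was -0.11 (SE 0.17) with it and 0.05 (SE 0.08) without it. Cacna1d was at 3.29 to 4.71 CPM (median 3.48) in Gnb5-/- against 2.31 to 3.52 (median 2.91) in Gnb5+/+ ventricles, with all 6 mice above the Gnb5+/+ mean (log2 0.33, SE 0.21, exact permutation p = 0.0195, or 0.242 adjusted over 56 tests). Cacna1b had 2 to 14 reads a library in Gnb5+/+ and 8 to 16 in Gnb5-/- ventricles. It passed the filter on low counts in ventricles only with the Gnb5-/- group in the fit, so its Gnb5-/- difference there is not given. Cacna1e and Cacna1i in ventricles and Cacna1b in atria had too few reads to enter the fit.

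In hippocampus, the 8 differences between Gnb5-/- and Gnb5+/+ mice ran from -0.13 (SE 0.12) in Cacna1g to 0.14 (SE 0.08) in Cacna1h. The Gnb5-/- library of mouse 5 was low for Cacna1g (49.7 CPM, others 80.9 to 93.9), and without it this gene differed by -0.0255 (SE 0.06) and Cacna1h by 0.0922 (SE 0.08). Cacna1e, the leading gene there, was at 478 to 565 CPM (median 518) in Gnb5-/- and 447 to 595 (median 498) in Gnb5+/+ mice, a difference of 0.01 (SE 0.06, edgeR adjusted p = 0.982). The family's sum was 95.7 ± 4.27 and 94.4 ± 4.26 CPM per kb.

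In cerebellum, the library of mouse 12 had 20.8 to 41.3% of the Gnb5+/+ mean for each of the 8 members, and lay below all 5 others of its group for all 8. The share of all genes that lay below all 5 others in that library was not counted. The median gene of that library was at 96.7%, and the members stood at percentiles 9.23 to 16.6 of all genes. Purkinje cell markers summed to 4434 CPM in it (5494 to 6484 in the others), astrocyte markers to 614 (1014 to 1200), oligodendrocyte markers to 3213 (1551 to 2214) and choroid plexus markers to 623 (9.48 to 14.9), while granule cell markers stood at 3458 (3146 to 3378). The part of these in the member levels was not tested.

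The cerebellar differences were thus given with and without mouse 12. With it, Cacna1c and Cacna1i had the largest, both -0.39 (SE 0.27 and 0.19, edgeR adjusted p = 0.583 for both). Without it, Cacna1c was at 86.2 to 108 CPM in Gnb5-/- against 102 to 119.5 in Gnb5+/+ mice (-0.20, SE 0.07, edgeR adjusted p = 0.285), and Cacna1i at 53.7 to 78.5 against 69.2 to 86.2 (-0.23, SE 0.08, adjusted p = 0.292). Cacna1a, the leading cerebellar gene, went from -0.16 (SE 0.26) to 0.04 (SE 0.03), and Cacna1g from -0.08 (SE 0.19) to 0.08 (SE 0.04). The family's sum was 91.4 ± 28.7 CPM per kb with mouse 12, 103 ± 2.48 without it and 103 ± 1.96 in Gnb5+/+ cerebellum.

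In cortex, all 8 members had lower Gnb5-/- means, by -0.29 (Cacna1i, SE 0.17) to -0.48 (Cacna1c, SE 0.32) on the log2 scale, beside a median of 0.01 over all genes. Mouse 14 had 14.7 to 52.8% and mouse 3 had 38.4 to 59.5% of the Gnb5+/+ mean over the members, and both lay below the remaining 4 libraries for every member. The share of all genes that did so was not counted. The median gene was at 82.1% of the Gnb5+/+ mean in mouse 14 and at 100.4% in mouse 3. The members stood at percentiles 10.7 to 31.6 of all genes in mouse 14 and 8.22 to 16.5 in mouse 3. Astrocyte markers summed to 1390 and 1954 CPM in these libraries (3261 to 4015 in the others), and cortical excitatory neuron markers to 578 and 828 (1113 to 1228). Their part in the member levels was not tested. Without mouse 14 the differences ran from -0.16 to -0.28, and without both from -0.01 (Cacna1d, SE 0.05) to -0.10 (Cacna1c, SE 0.05, edgeR adjusted p = 0.979).

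**Figure D4:**
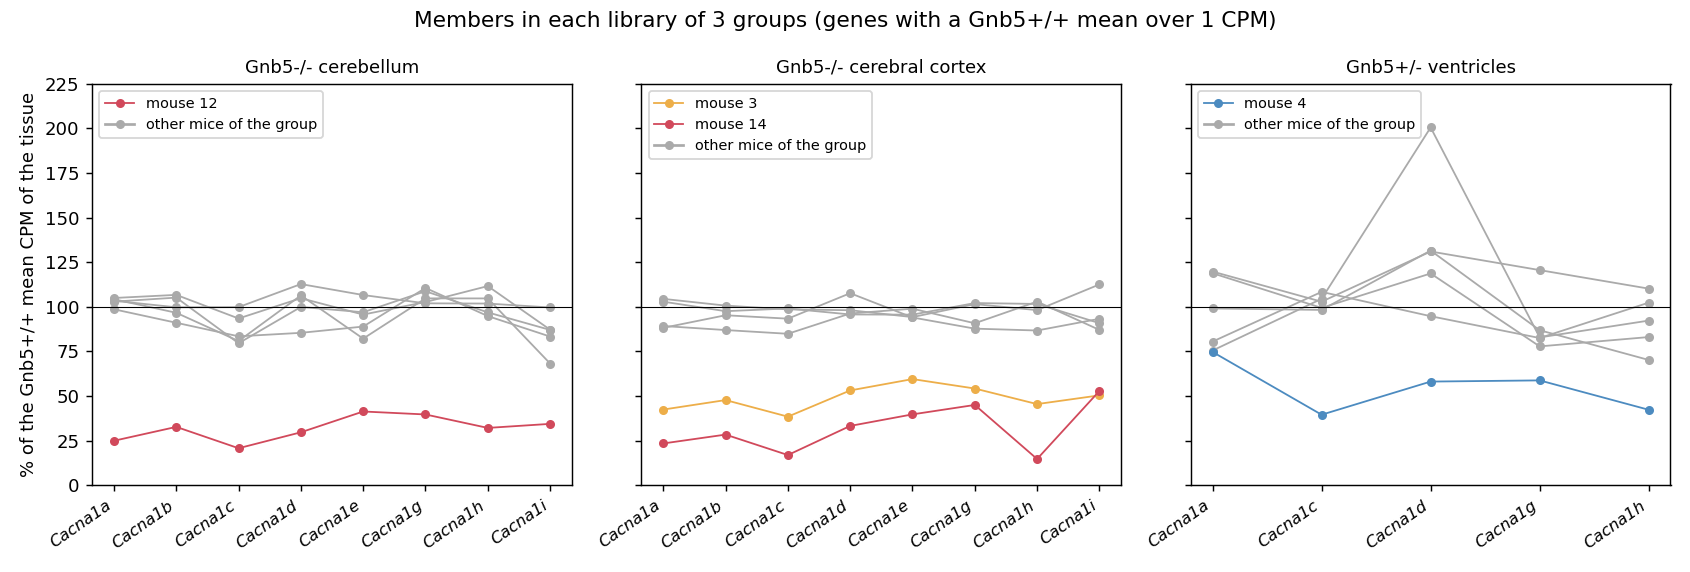
Level of each member in single libraries as a percent of the Gnb5+/+ mean of the tissue, for genes with a Gnb5+/+ mean of at least 1.0 CPM. Mouse 12 in cerebellum sits at 20.8 to 41.3% and mice 14 and 3 in cortex at 14.7 to 59.5%.

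Whether the Gnb5-/- difference varied between tissues was tested as an interaction, in the heart and between the 3 brain regions, with each mouse as a block. By edgeR, 0 of the 32 tests of members passed. All genes were called at 0.00622% between the heart chambers, 0.0258% between hippocampus and cerebellum, 0.0103% between cortex and cerebellum and 0% between cortex and hippocampus. At an unadjusted p under 0.05, 2 passed, both between ventricles and atria, where 4.57% of all genes did so (3.72 to 4.42% in the brain pairs): Cacna1e (-1.07, SE 0.39, edgeR adjusted p = 0.973) and Cacna1g (-0.39, SE 0.15, adjusted p = 0.973). Cacna1e had 5 to 16 reads a library in ventricles of these genotypes. Without the 3 brain libraries that stood apart, 0 members passed in each brain pair. Between hippocampus and cerebellum 2 then had an unadjusted p under 0.05. The share of all genes in that fit is not given, so this count is not read as a result about the members. The median over the members went from 0.25 to 0.08 in that pair. It went from -0.38 to -0.05 between cortex and hippocampus and from -0.18 to -0.02 between cortex and cerebellum.

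Across the 72 libraries, which share tissue as their main source of variation, the protein-coding genes of highest Pearson r with each member are given as a description. For the presynaptic pores these were Ahcyl1, Sept8 and Tiam1 with Cacna1a (r = 0.992 for each), Iqsec3, Tmem130 and Map2 with Cacna1b (0.988 to 0.990) and Tmod2 and Sv2b with Cacna1e (0.994 for both). For the L-type pores they were 2610507B11Rik, Bcl2l13 and Pstpip2 with Cacna1c (0.959 to 0.976) and Gnao1, Sox5 and Usp29 with Cacna1d (0.980 to 0.984). For the T-type pores they were Itpr1, Grid2ip and Astn2 with Cacna1g (0.971 to 0.981), Epha4, Stk32b and Thbs3 with Cacna1h (0.961 to 0.967) and Nalcn, Scd2 and Cpt1c with Cacna1i (0.985 to 0.986). Over the 36 brain libraries alone, 0 of the genes named for each member stayed among its first 3.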

How the data were processed

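RNA was measured in 5 tissues of 18 mice, and samples were grouped by the tissue, genotype and mouse number in their labels. The authors made stranded single-end libraries from total RNA, trimmed adapters with cutadapt 1.8, took out reads of ribosomal RNA and of low complexity, mapped what was left to GRCm38 with STAR 2.5.3a and counted it per gene with HTSeq 0.9.1. The deposited values are these raw counts per gene, without normalization. The strand setting of the counter is not given in the sources used here, so for Cacna1a, Cacna1d and Cacna1h reads from the opposite-strand genes they overlap may be included. The table of each library also gave 5 totals of reads outside single genes, which were left out of library sizes. Library sizes were 29204390 to 48807435 counts on genes. Gene symbols and positions came from GENCODE M21, which matched 53620 of 53715 identifiers.

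Counts were filtered with filterByExpr (count minimum 10), scaled with TMM and tested with edgeR 4.0.16 (R 4.3.3) by the quasi-likelihood test, with Benjamini-Hochberg adjustment over all genes tested and a threshold of 0.05. Genotypes were compared within a tissue under genotype alone, and tissues within a genotype, and their interaction, with the mouse as a block, since tissues with the same number came from the same animal (114 of 126 such pairs of libraries had deviations correlated above 0.1). Standard errors are the log2 difference over the square root of F. Log2 CPM (prior count 2) of single genes was tested by exact permutation, two-sided, over 924 divisions of 12 mice, which cannot give a p below 0.00216. Levels between genes are per kb of merged exons. Scripts were tested on simulated data.

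The members and lists were chosen with earlier results of these data known. All 8 members were described in all groups. Of the pathway lists, genes called between genotypes were named, and otherwise up to 3 genes per list with the largest tissue difference, and for likeness the 3 protein-coding genes of highest Pearson r over 72 libraries. For likeness, one of these genes is not reported here. Alternatives were DESeq2 1.42.0, RLE factors, total counts, no filter, fits with and without a replicate block, heart fits of 2 genotypes, the longest transcript as length and likeness in brain alone. Fits without the 4 libraries that stand apart, without the Gnb5-/- hippocampus of mouse 5 and total counts without mitochondrially encoded genes were added after the data were seen. Isoforms and protein levels were not analysed here. Python 3.11.15, pandas 2.3.3, numpy 2.4.6 and matplotlib 3.10.9 were used.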

Additional observations from a re-analysis of the deposited data

Results flagged for a closer look

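A library far from the other 5 of its group was found in 17 of 96 combinations of a member and a group, by the gap to the nearest other library over the whole range, set against Dixon's critical value for 6 samples. Chance gives about 1 in 20 such groups. In 7 of the 17, the library was the Gnb5-/- cerebellum of mouse 12, which was lowest with 105.3 CPM of Cacna1a (416 to 443 in the others), 25.51 of Cacna1b (71.0 to 83.2), 22.47 of Cacna1c (86.2 to 108), 20.63 of Cacna1d (59.4 to 78.3), 105.3 of Cacna1e (209 to 272), 116.6 of Cacna1g (299.5 to 325) and 0.6436 of Cacna1h (1.90 to 2.23). Gnb5+/- ventricles of mouse 4 were lowest for Cacna1c, with 213.6 CPM against 531 to 585.

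Single members stood out in other libraries. Cacna1a was highest in Gnb5-/- ventricles of mouse 10 (8.778 CPM, others 5.16 to 6.51) and lowest in Gnb5+/+ cerebellum (402.1, others 421 to 431) and cortex (155.1, others 178 to 185) of mouse 7. Cacna1b was highest in Gnb5-/- atria of mouse 1 (0.9105, others 0 to 0.259) and in Gnb5+/+ cerebellum of mouse 16 (92.58, others 71.0 to 78.2). Cacna1d was highest in Gnb5-/- ventricles of mouse 1 (4.707, others 3.29 to 3.65) and lowest in Gnb5+/+ hippocampus of mouse 17 (68.93, others 74.3 to 76.2). Cacna1e was lowest in Gnb5+/+ cortex of mouse 16 (370.1, others 411 to 433), and Cacna1g in Gnb5-/- hippocampus of mouse 5 (49.69, others 80.9 to 93.9).

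All 6 Gnb5-/- mice were above the Gnb5+/+ mean for Cacna1b in ventricles, with a mean difference of 0.6686 in log2 CPM at 2 to 16 reads a library, a gene that passed the filter there only with the Gnb5-/- group. In cortex all 6 were below it on the log2 CPM scale of that tissue, by a mean of -0.5059, but on the CPM scale of all libraries mouse 10 was at 169.8 beside a Gnb5+/+ mean of 169. Mice 14 and 3 had 47.9 and 80.5 CPM, and the edgeR difference was -0.39 with them and -0.0788 without them. Whether the Gnb5-/- difference of Cacna1b varied between ventricles and cortex was not tested.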

How the results depend on the processing

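Of 204 counts of members called under an alternative, 203 stayed within 1.5 times the reported count, among them every count of 0 between genotypes. The exception was cortex against hippocampus in Gnb5-/- mice, with 5 instead of 3 members called without mouse 12 in cerebellum and mice 3 and 14 in cortex. Between tissues, 1050 of 1089 fold changes kept their sign and side of the threshold, and between genotypes 357 of 369. One called difference changed sign: Cacna1c between hippocampus and atria of Gnb5+/+ mice went from -0.40 to 0.2325 with total counts, still past the threshold.

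The other differences that changed sign had not passed the test. With total counts, Cacna1d and Cacna1i between hippocampus and cerebellum were at -0.0248 and -0.0149, Cacna1c and Cacna1h in Gnb5-/- atria at 0.0695 and 0.0507, Cacna1e in Gnb5-/- hippocampus at -0.00829 and, in Gnb5-/- mice, Cacna1c at 0.0929 between hippocampus and atria and -0.0666 between cortex and cerebellum. With total counts that left out mitochondrially encoded genes, Cacna1d between hippocampus and cerebellum was at -0.00542 Cacna1e in Gnb5-/- hippocampus at -0.00767 and Cacna1c between cortex and cerebellum of Gnb5-/- mice at -0.0548, which was at -0.00248 with DESeq2 and -0.000566 with RLE factors. Without a filter, Cacna1d between cortex and hippocampus was at -0.000905. Cacna1g between ventricles and atria was at 0.0231 with DESeq2 and 0.0285 with RLE factors. Without mouse 12, Cacna1a, Cacna1d, Cacna1g and Cacna1h in Gnb5-/- cerebellum were at 0.0381, 0.0248, 0.0781 and 0.0276, and without mouse 4, Cacna1b and Cacna1c in Gnb5+/- ventricles at 0.0250 and 0.0479. Without mouse 5, Cacna1i in Gnb5-/- hippocampus was at 0.00538. Without the 3 brain libraries, Cacna1a and Cacna1b between cortex and hippocampus of Gnb5-/- mice were at 0.132 and 0.111, and Cacna1d between cortex and cerebellum at 0.107. The cause of these changes was not tested, and the fits without a library have fewer samples.

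With the replicate number of the labels as a block, 0 members were called in all 7 genotype comparisons, as without it, Cacna1i in Gnb5-/- atria was at 0.864 (adjusted p = 0.370) and Cacna1b in Gnb5+/- ventricles at 0.00403. These numbers join different animals: deviations of libraries with the same number had correlations of -0.199 to 0.116 over 54 pairs, and 8 of 108 libraries correlated best with their own number. Without the mouse as a block, no count of members called between tissues moved by over 1.5 times.

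The longest transcript as length moved 17 of 40 ranks of members within Gnb5+/+ tissues. Members with few reads in heart (Cacna1b, Cacna1e and Cacna1i) have differences of low precision there. Scaling moves heart against brain: total counts shifted the members by a median of 0.63 to 1.07 in those pairs.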
